A study of Saccharomyces cerevisiae with 21 samples.

Results

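Nascent transcription of 10 chaperone genes of the budding yeast Saccharomyces cerevisiae was followed over 7 conditions. The genes were set by open reading frame name. The rule used no measured value, but earlier results of these data were known when it was made. The genes encode cytosolic and mitochondrial chaperones: HSP82 and HSC82 (the Hsp90 pair), SSA1, SSA2, SSA3 and SSA4 (cytosolic Hsp70), YDJ1 and SIS1 (the J-proteins that serve it), HSP104 (the cytosolic disaggregase) and HSP78 (its mitochondrial relative). They are 10 of the 7126 features in the deposited table and 10 of its 6007 protein-coding genes that match the reference annotation. All 10 passed the filter on low counts. Reads came from RNA bound to RNA polymerase II, which was purified through the subunit Rpb3 carrying a 3xFLAG tag.

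Every strain was labelled as a MATa derivative of BY4741 with his3D1, leu2D0, met15D0, ura3D0 and the RPB3-3xFLAG allele marked with NATMX, although counts of the gene deleted in met15D0 went against that label in all strains but STH1-AID (values below). The WT strain had no degron allele and no osTIR, and it was not treated. The degron strains expressed osTIR, a plant F-box protein, from the GPD1 promoter at LEU2. They carried a 3V5-IAA7 degron on Sth1 (STH1-AID), on Rap1 (RAP1-AID) or on both proteins (RAP1-AID/STH1-AID, here also the double strain). Each was given DMSO, the solvent (called the control), or 500 µM of the auxin 3-IAA for 2 h, which leads to destruction of the tagged protein. Each of the 7 conditions had 3 biological replicates, 21 libraries in all, and each genotype was 1 strain. A control therefore differed from WT by degron allele, osTIR and solvent together, and these cannot be told apart. No strain without a degron was given IAA. In each depletion, loss of the protein and an effect of IAA itself therefore cannot be told apart either.

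Hsp70 proteins bind unfolded stretches of other proteins in a cycle driven by ATP. J-proteins such as Ydj1 and Sis1 deliver the substrates, Hsp90 acts later on a narrower set of client proteins, and Hsp104 pulls single chains out of aggregates and hands them to Hsp70. In yeast, SSA2 and HSC82 are known as genes expressed at all times, while SSA3, SSA4, HSP82, HSP104 and HSP78 are known for induction by heat. Heat shock factor Hsf1 binds inverted repeats of a short unit (GAA on one strand, TTC on the other), and Msn2 and Msn4 bind the stress response element AGGGG. Sth1 is the ATPase of the nucleosome remodeller RSC, and Rap1 is a general regulatory factor best known at ribosomal protein and glycolytic genes.

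To see which members carry Hsf1-type units, the 300 bases before each start codon were read from the R64 genome (RefSeq). The search was for TTCNNGAA or GAANNTTC, which on both strands are the same pair of patterns, and for the same patterns extended by another inverted unit after 2 further bases. A match to at least 2 units lay upstream of 7 of the 10 members, against 22.3% of 6006 promoters. A match to 3 units, which always contains matches to 2, lay upstream of SSA1, SSA2, HSP104 and HSP78, 4 of the 10, against 0.866% of promoters. SSA3, YDJ1 and SIS1 held neither in this window. The elements below are shown because they separate the members. Capitals mark the matched units with the bases between them, the coordinates are those of the capitals, and each sequence reads 5′ to 3′ on the strand of its gene.
HSP78 (chrIV:974473-974490, minus strand, 4 units): ttattTTCCAGAATGTTCTAGAAgtgtt
SSA1 (chrI:141680-141692, minus strand, 3 units): tctttTTCCAGAACGTTCcatcg
SSA2 (chrXII:97706-97718, minus strand, 3 units): tttttTTCTAGAACATTCcatcg
HSP104 (chrXII:88326-88338, plus strand, 3 units): ccaGAATTTTCTAGAAgggtt
HSP82 (chrXVI:98853-98860, minus strand, 2 units): tttttTTCTAGAAcgccg
HSC82 (chrXIII:632138-632145, plus strand, 2 units): tttctTTCTAGAAggtga
SSA4 (chrV:364336-364343, plus strand, 2 units): gtacaTTCTAGAAgttcc

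HSP78 had 4 adjoining units in a single run, at positions -247 to -230, counted from the start codon. The 3-unit runs of SSA1, SSA2 and HSP104 lay at -261 to -249, -233 to -221 and -297 to -285. The run of HSP104 lay at the edge of the window, so a further unit before it would not have been counted. SSA1 held 1 further match to 2 units and SSA2 held 2. HSC82 held 3 separate matches to 2 units, HSP82 held 2, and SSA4 held 1. The whole windows of HSP78, SSA4 and SSA3 are given next. HSP78 has the longest run within the window, and SSA3 and SSA4 are paralogs of which only SSA4 has a match here. Capitals have the same meaning.
HSP78 (chrIV:974244-974543, minus strand): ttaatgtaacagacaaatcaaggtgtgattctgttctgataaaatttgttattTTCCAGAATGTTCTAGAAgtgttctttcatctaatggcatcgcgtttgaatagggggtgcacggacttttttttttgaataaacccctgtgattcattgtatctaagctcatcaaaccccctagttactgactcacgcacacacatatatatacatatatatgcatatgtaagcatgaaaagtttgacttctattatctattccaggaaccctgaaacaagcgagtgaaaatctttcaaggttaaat
SSA4 (chrV:364289-364588, plus strand): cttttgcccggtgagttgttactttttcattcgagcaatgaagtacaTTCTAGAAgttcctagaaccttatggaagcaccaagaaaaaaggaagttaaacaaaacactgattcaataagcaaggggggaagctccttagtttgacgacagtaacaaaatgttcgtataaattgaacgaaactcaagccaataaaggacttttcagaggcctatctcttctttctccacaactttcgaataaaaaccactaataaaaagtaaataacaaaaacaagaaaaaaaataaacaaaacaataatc
SSA3 (chrII:86449-86748, minus strand): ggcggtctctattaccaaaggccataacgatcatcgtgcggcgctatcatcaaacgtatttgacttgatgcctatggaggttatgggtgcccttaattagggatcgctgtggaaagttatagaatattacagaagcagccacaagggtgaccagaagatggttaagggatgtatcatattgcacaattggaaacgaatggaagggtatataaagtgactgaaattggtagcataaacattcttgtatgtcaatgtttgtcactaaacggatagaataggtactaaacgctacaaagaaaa

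The stress response element (AGGGG, or CCCCT on the other strand) was found upstream of HSP104, HSP82, SSA1, SSA4 and HSP78, 5 of 10 members against 22.2% of promoters. HSP104 and HSP78 each had 3 copies. CGCG reads the same on both strands and is a form of CG(C/G)G, a motif that the paper links to RSC. It was found upstream of HSP104, HSP82 and HSP78, 3 of 10 against 28.2%. CGGG, the other form, and A-tracks, which the paper also links to RSC, were not searched for. A member without CGCG may therefore still hold the motif. ACCCNNACA, a Rap1-type motif, was found on neither strand upstream of any of the 10, and upstream of 3.11% of all promoters. These matches describe letters and not occupied sites.

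**Figure D1:**
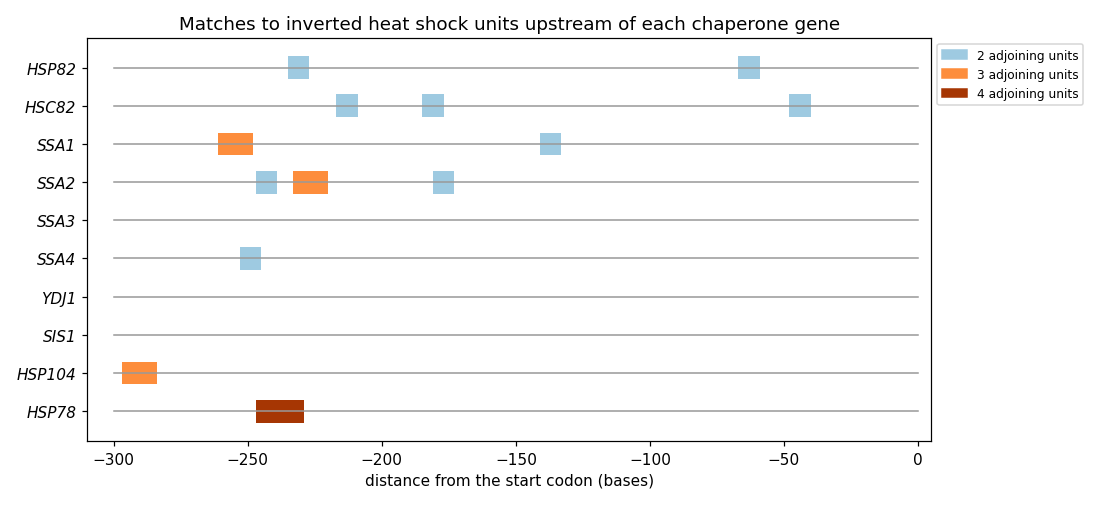
Matches to inverted heat shock units in the 300 bases before each start codon, by distance from the start codon in bases, with 1 row for each member. Colour gives the number of adjoining units within the window: HSP78 alone has a run of 4, SSA1, SSA2 and HSP104 have runs of 3, and SSA3, YDJ1 and SIS1 have none. The run of HSP104 lies at the window's edge.

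Library depth ran from 18289832 to 23182315 gene counts, with a median of 20675890. STH1 and RAP1 transcripts checked the labels only in part, since the degron acts on protein: STH1 was at 1114 to 1226 CPM (counts relative to the TMM-adjusted size of the library) in the STH1-AID control and at 705 to 777 in WT, and RAP1 at 538 to 636 in the RAP1-AID control and 333 to 368 in WT. MET17 (YLR303W, also called MET15) was labelled as deleted in every strain, but was at 29.0 to 63.8 CPM in the libraries of WT, RAP1-AID and the double strain and at most at 0.115 CPM in the STH1-AID libraries. Comparisons of STH1-AID cells with another strain cross this difference as well. Those among WT, RAP1-AID and the double strain do not. LEU2 had no counts and URA3 at most 2 in any library, although the paper lists a LEU2 marker in the degron strains. HIS3, labelled his3D1 in every strain, had between 777 and 1675 counts in each library. What these counts mean for the labels was not tested.

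Some libraries stood apart over the members. In RAP1-AID/STH1-AID cells replicate 2 was the highest of 3 for 9 of the 10 members with DMSO and again for 9 of 10 with IAA. The median ratio of the highest to the lowest replicate was 2.07 and 2.12 in these conditions, against 1.19 to 1.47 in the other 5. In RAP1-AID cells replicate 1 was highest for 9 members with DMSO and for all 10 with IAA. Results of these strains are therefore also given without replicate 2 of the double strain, or with the replicate number in the model. Replicate 2 was also highest for 7 members in the STH1-AID control and for 6 in WT, at the lower ratios given above. How these libraries stand over all genes was not counted.

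Length-scaled levels (TPM, as deposited) compare genes with each other. In WT, SSA2 was highest at 1500 ± 64.7 TPM, followed by YDJ1 at 710 ± 17.9, HSC82 at 528 ± 50.2 and SIS1 at 444 ± 38.1 (SD, n = 3 here and below). SSA1 stood at 335 ± 35.9, HSP104 at 274 ± 72.5 and HSP82 at 260 ± 42.2 TPM. HSP78 was at 89.5 ± 18.2, SSA4 at 35.8 ± 3.00 and SSA3 at 28.9 ± 2.21 TPM. The libraries of HSC82 and SIS1 overlapped, as did those of SSA1 and HSP104 and those of HSP104 and HSP82. All other neighbours in this order were separated in all 3 libraries. In the RAP1-AID control HSP78 was the lowest of the 10 at 22.2 ± 3.88 TPM, below SSA3 and SSA4. After Sth1 depletion SSA1 held the third place with 863 ± 59.9 TPM, and the second by CPM per kilobase.

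**Figure D2:**
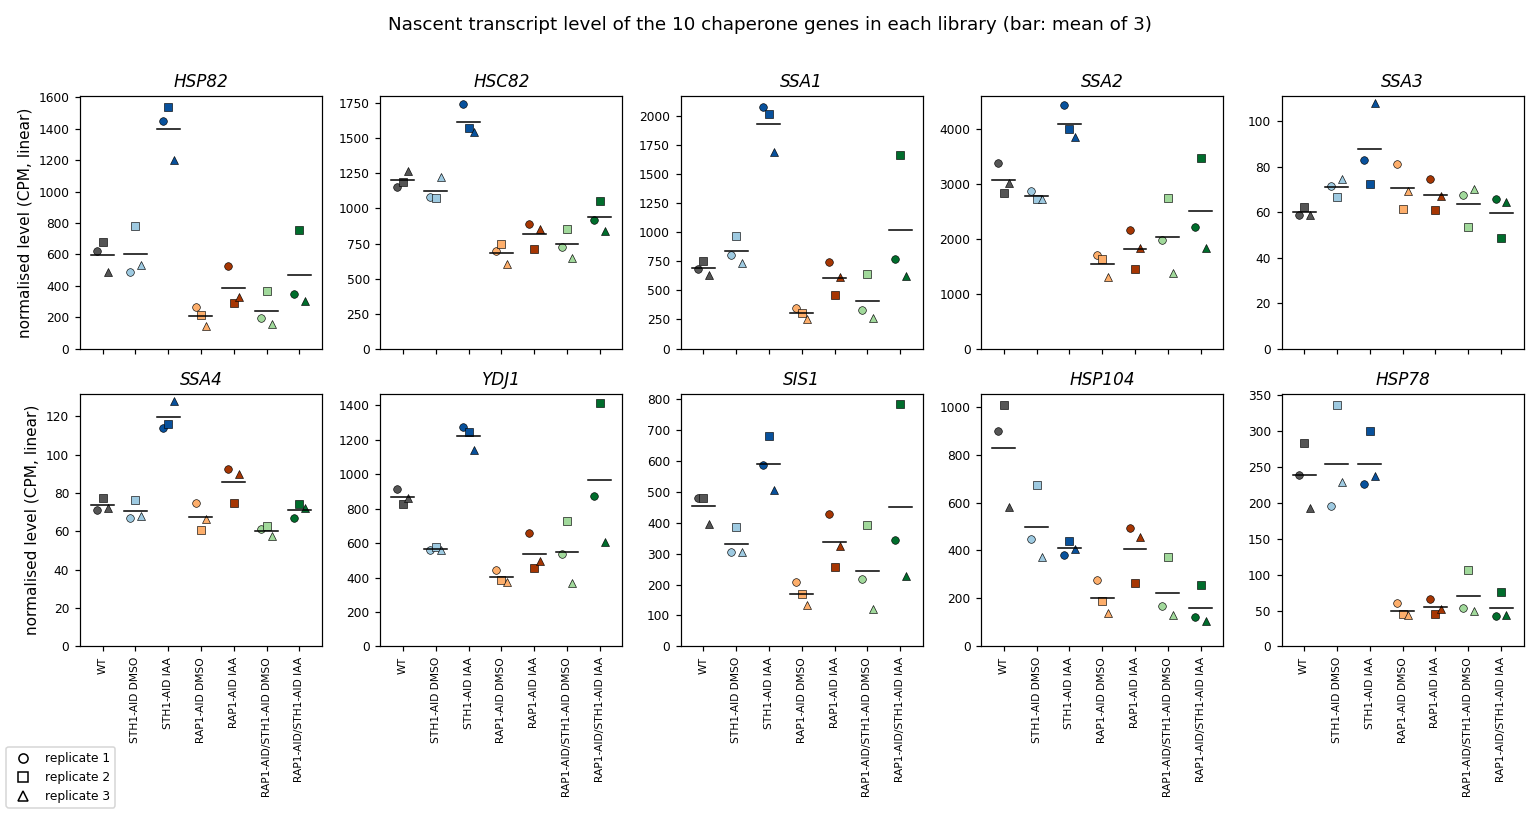
Normalised nascent transcript level of each member in each of the 21 libraries (CPM, linear axis from 0), by condition. Symbols give the replicate number and bars the mean of 3. The 3 Sth1-depleted libraries lie above their controls for 7 genes, the RAP1-AID controls lie below WT for 8, and replicate 2 of the double strain is high with and without IAA.

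Summed, the members took 0.708% to 0.805% of all gene counts in WT libraries. The STH1-AID control, at 0.678% to 0.813%, overlapped with WT. With Sth1 depleted they took 0.926% to 1.06%, above every control library. In the RAP1-AID control they took 0.340% to 0.436%, below every WT library, and after Rap1 depletion 0.499% to 0.723%. In the double strain the shares were 0.348% to 0.660% with DMSO and 0.431% to 0.874% with IAA, and these overlapped.

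Depletion of Sth1 asks what the members do when RSC is lost. In all, 7 of the 10 rose: SSA1, HSP82, YDJ1, SIS1, SSA4, SSA2 and HSC82, by between 1.44-fold and 2.32-fold. None fell. Levels are relative within a library, and the paper states that RSC acts on RNA polymerase II transcription globally. Absolute rises or falls were therefore not measured. HSP104, HSP78 and SSA3 were not called (adjusted p below 0.05, edgeR's quasi-likelihood test, adjusted over 5742 protein-coding genes). Among all these genes 35.9% were called higher and 40.9% lower. The members' median log2 fold change was 0.66, beside -0.06 for all protein-coding genes. With an added limit of log2 1 on the fold change, HSP82, SSA1 and YDJ1 remained, 3 of 10 against 10.5% of all genes. The groups did not overlap for the 7 called members, where 77.8% of all genes did not overlap. In bulk cultures a change in some cells and a smaller change in all cannot be told apart.

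Both genes of the Hsp90 pair rose. HSP82 (YPL240C, chromosome XVI, 96496 to 98625, the span of the open reading frame in R64, as for each member here) was at 488, 781 and 532 CPM in the STH1-AID control and at 1449, 1538 and 1202 CPM with IAA. The groups did not overlap (log2 1.22, standard error 0.34, adjusted p = 0.00298). HSC82 (YMR186W, chromosome XIII, 632355 to 634472) was at 1083, 1074 and 1223 CPM with DMSO and 1744, 1572 and 1545 CPM with IAA, also without overlap (log2 0.52, standard error 0.12, adjusted p = 5.40e-04).

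Among the Hsp70 genes, SSA1 (YAL005C, chromosome I, 139503 to 141431) had 804, 967 and 733 CPM in the control and 2074, 2010 and 1688 CPM after Sth1 depletion. Every depleted library lay above every control library (log2 1.20, standard error 0.31, adjusted p = 0.00164). SSA2 (YLL024C, chromosome XII, 95566 to 97485), the most highly transcribed member, went from 2873, 2725 and 2736 to 4445, 4005 and 3852 CPM without overlap (log2 0.56, standard error 0.22, adjusted p = 0.0277), a call lost without any 1 of the 3 control libraries or without IAA replicate 1. SSA4 (YER103W, chromosome V, 364589 to 366517) went from 67.1, 76.2 and 67.8 to 114, 116 and 128 CPM. Its replicates were close, and its adjusted p was the smallest of the members (log2 0.76, standard error 0.09, adjusted p = 2.88e-07). SSA3 (YBL075C, chromosome II, 84499 to 86448) was at 71.7, 66.5 and 74.7 CPM with DMSO and 83.2, 72.5 and 108 CPM with IAA. These groups overlapped, and SSA3 was not called (log2 0.31, standard error 0.14, adjusted p = 0.0549).

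Both J-protein genes rose. YDJ1 (YNL064C, chromosome XIV, 505868 to 507097), whose product is the general partner of cytosolic Hsp70, was at 559, 576 and 560 CPM in the control and 1273, 1248 and 1144 CPM after depletion (log2 1.11, standard error 0.23, adjusted p = 2.53e-04). SIS1 (YNL007C, chromosome XIV, 618507 to 619565), which encodes the essential J-protein, was at 304, 387 and 306 CPM and then 587, 681 and 505 CPM. The SIS1 groups did not overlap, yet the call stood close to the threshold (log2 0.83, standard error 0.37, adjusted p = 0.0476), and leaving out any 1 of the 6 libraries raised it above 0.05. Neither disaggregase gene was called. HSP104 (YLL026W, chromosome XII, 88623 to 91349) had 448, 672 and 373 CPM with DMSO and 382, 441 and 404 CPM with IAA, which overlap (log2 -0.28, standard error 0.37, adjusted p = 0.494). HSP78 (YDR258C, chromosome IV, 971808 to 974243) had 196, 337 and 229 CPM and then 226, 300 and 237 CPM, also overlapping (log2 0.0024, standard error 0.27, adjusted p = 0.994). Under total library size in place of TMM, where the median of all genes fell to -0.31 on the log2 scale, SIS1 and SSA2 were no longer called and the other 5 were.

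**Figure D3:**
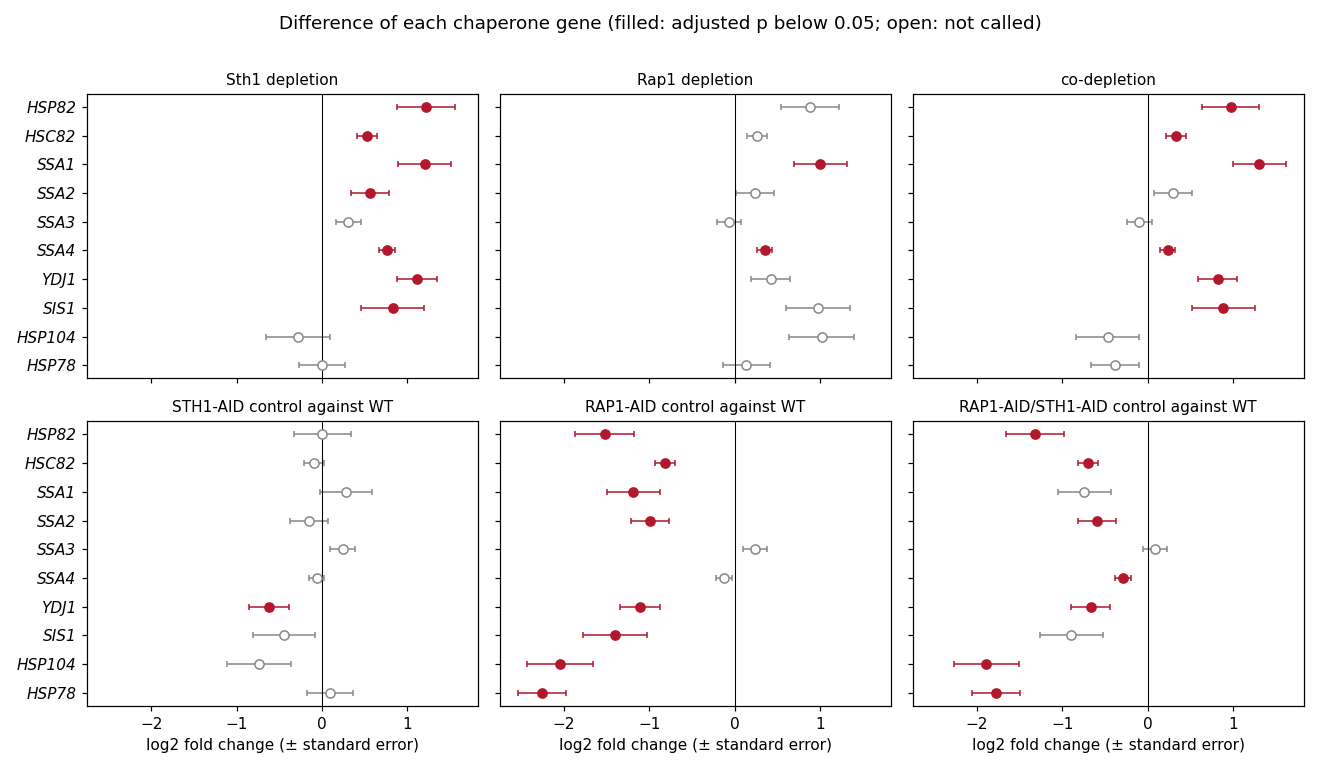
Log2 fold change of each member with its standard error in the 3 depletions (top, IAA against DMSO) and in the 3 controls against untreated WT (bottom), from edgeR's fit to 21 libraries. Filled points have an adjusted p below 0.05: 7, 2 and 6 members on the top row, all higher, and 1, 8 and 7 on the bottom row, all lower.

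With Rap1 depleted 2 members were higher, SSA1 and SSA4, and none lower, in a comparison where 12.8% of protein-coding genes were higher and 13.3% lower. SSA1 went from 348, 305 and 253 to 740, 464 and 612 CPM without overlap (log2 1.00, standard error 0.31, adjusted p = 0.0221). SSA4 went from 74.7, 60.7 and 66.6 to 92.7, 74.7 and 89.8 CPM, where the highest control and the lowest depleted library are equal to 3 digits (log2 0.35, standard error 0.09, adjusted p = 0.00741). Of these, only SSA1 was past log2 1, 1 of 10 against 1.57% of all genes. The groups did not overlap for 5 members, where 42.2% of all genes did not overlap. With the replicate number as a block 5 members were higher, SSA1, SSA4, HSP82, HSP104 and SIS1. The block gives every condition the same replicate effects, so it does not model pairing within RAP1-AID cells. Across genes, deviations of IAA and DMSO libraries of equal number correlated at 0.20, 0.47 and 0.24 in this strain. Between its DMSO libraries and WT the values were -0.016, 0.037 and 0.11. A fit that pairs the RAP1-AID libraries alone was not run. Without DMSO replicate 2 or 3, or IAA replicate 1 or 3, the count without the block was 1.

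HSP82, HSP104 and SIS1 had fold changes in Rap1 depletion of the size of SSA1's with wider errors. HSP82 was at 264, 215 and 145 CPM in the RAP1-AID control and at 524, 293 and 332 CPM with IAA, without overlap (log2 0.88, standard error 0.34, adjusted p = 0.0607). With the block its log2 fold change was 0.92 (adjusted p = 0.0133). SIS1 was at 208, 170 and 134 CPM and then 427, 256 and 325 CPM (log2 0.98, standard error 0.37, adjusted p = 0.0589, and 0.0178 with the block). HSP104 had 275, 188 and 138 CPM with DMSO and 495, 265 and 457 CPM with IAA, and these overlapped (log2 1.02, standard error 0.37, adjusted p = 0.0519, and 0.0158 with the block). YDJ1, HSC82, SSA2, HSP78 and SSA3 had log2 fold changes of 0.42, 0.26, 0.23, 0.13 and -0.06 and were not called with the block or without it. HSP78 was at 60.3, 45.7 and 43.5 CPM with DMSO and 65.9, 45.3 and 52.7 CPM with IAA, which overlap.

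When Rap1 and Sth1 were depleted together, 6 members rose and none fell, while 32.2% of protein-coding genes were higher and 37.5% lower. They were SSA1 (log2 1.31, standard error 0.31), HSP82 (0.97, standard error 0.34), SIS1 (0.89, standard error 0.37), YDJ1 (0.82, standard error 0.23), HSC82 (0.33, standard error 0.12) and SSA4 (0.24, standard error 0.09), with adjusted p-values between 0.00106 and 0.0394. Only SSA4 had groups that did not overlap, 61.0, 62.5 and 57.7 CPM with DMSO and 66.8, 74.2 and 72.1 with IAA, although 69.1% of all genes did not overlap. SSA1 alone was past log2 1 (1 of 10 against 7.07%). It was at 335, 643 and 259 CPM with DMSO and at 771, 1663 and 626 CPM with IAA, so that DMSO replicate 2 lay above IAA replicate 3. HSP82 showed the same, with 195, 366 and 158 CPM against 350, 758 and 301 CPM.

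The count in the double strain rested on few libraries. Shares of all genes were not counted for the fits that leave libraries out or change the scaling. Without both replicate 2 libraries it was 5, with SSA4 lost (adjusted p = 0.0879). Without IAA replicate 2 alone only SSA1 was higher, while HSP104 and HSP78 were lower (2 members), and without DMSO replicate 3 the count was 2. Scaled by total library size, where the median of all genes fell to -0.26, it was also 2, SSA1 and YDJ1. HSP104 was at 169, 371 and 132 CPM with DMSO and 124, 256 and 106 CPM with IAA, and was not called with all libraries (log2 -0.47, standard error 0.37, adjusted p = 0.271). HSP78 (-0.38), SSA2 (0.30) and SSA3 (-0.09) were not called either.

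The depletions were compared with each other through the difference of their IAA effects. Sth1 depletion and Rap1 depletion differed for HSP104 and SSA4, 2 of 10 members against 68.9% of all genes called in either direction. HSP104's effect was lower with Sth1 than with Rap1 depletion (difference of log2 fold changes -1.30, standard error 0.53, adjusted p = 0.0348). This call was lost for 7 of the 12 libraries when each was omitted, and with DESeq2's Wald test. With the replicate number as a block it was kept (-1.32, adjusted p = 0.0144), and 3 members were called higher in place of 1: SSA4, YDJ1 (0.69, adjusted p = 0.0440) and SSA3 (0.36, adjusted p = 0.0431). SSA4's was higher (0.41, standard error 0.13, adjusted p = 0.00744), but not under total library size (0.04, adjusted p = 0.822), where the median of all genes moved from -0.06 to -0.44. Co-depletion differed from Sth1 depletion for SSA4 (-0.53, standard error 0.13, adjusted p = 0.00416), 1 of 10 against 30.0%. It also differed from the sum of the single effects for SSA4 (-0.88, standard error 0.16, adjusted p = 3.90e-04), 1 of 10 against 26.8%. The remaining 9 had negative differences from the sum that were not called. Without IAA replicate 2 of the double strain 6 members were called lower than the sum, and without both replicate 2 libraries 4. Shares of all genes were counted only for the fit to all libraries without the block, in either direction. The counts from other fits have none beside them.

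Strains also differed before any depletion. In the RAP1-AID control 8 members were lower than in WT and none higher, against 22.1% and 22.7% of all genes. The members' median log2 fold change was -1.15, beside -0.01 for all protein-coding genes. Among the 8, 6 were past log2 1 (HSP78, HSP104, HSP82, SIS1, SSA1 and YDJ1), where 3.15% of all genes were. None of the 8 overlapped with WT, and 56.4% of all genes did not. The count stayed at 8 when any 1 of the 6 libraries was left out. All comparisons with WT share the same 3 WT libraries.

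HSP78 had the largest decrease of the members, with 239, 284 and 192 CPM in WT and 60.3, 45.7 and 43.5 CPM in the RAP1-AID control. The groups were far apart (log2 -2.26, standard error 0.29, adjusted p = 3.40e-06). HSP104 was next, at 896, 1007 and 581 CPM in WT and 275, 188 and 138 CPM (log2 -2.05, standard error 0.39, adjusted p = 2.56e-04). For HSP82 the values were 624, 681 and 491 CPM in WT and 264, 215 and 145 CPM, again without overlap (log2 -1.52, standard error 0.34, adjusted p = 0.00125). SIS1 (-1.40), SSA1 (-1.19), YDJ1 (-1.11), SSA2 (-0.99) and HSC82 (-0.81) were also lower, with adjusted p-values up to 0.00481. SSA4 was at 71.3, 77.1 and 72.2 CPM in WT and 74.7, 60.7 and 66.6 CPM in the control and was not called (log2 -0.13, standard error 0.09, adjusted p = 0.268). SSA3 was not called either (0.24, standard error 0.14, adjusted p = 0.189).

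The double-strain control showed the same direction with fewer calls: 7 members were lower and none higher, against 17.0% and 16.3% of all genes. HSP104 (log2 -1.89, standard error 0.38), HSP78 (-1.77, standard error 0.28) and HSP82 (-1.32, standard error 0.34) had the largest decreases and were past log2 1, 3 of 10 against 2.46%. HSC82 (-0.69), YDJ1 (-0.67), SSA2 (-0.59) and SSA4 (-0.28) were called with adjusted p-values up to 0.0462. SIS1 (-0.89) and SSA1 (-0.74) were not, at adjusted p = 0.0702 and 0.0718. The groups did not overlap for 8 members, where 46.7% of all genes did not. Without both replicate 2 libraries of this strain, 9 members were lower (share of all genes not counted for that fit). Without DMSO replicate 3 or WT replicate 2 the count was 4, and it was 4 under total library size.

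The STH1-AID control, by contrast, had 1 member lower than WT, YDJ1, at 912, 830 and 861 CPM in WT and 559, 576 and 560 CPM in the control (log2 -0.62, standard error 0.23, adjusted p = 0.0410), and none higher, where 19.4% of all genes were lower and 18.5% higher. The groups did not overlap for 3 members, against 50.8% of all genes. The call was lost without any 1 of the 6 libraries. HSP104 had 448, 672 and 373 CPM in this control and was not called (log2 -0.73, standard error 0.37, adjusted p = 0.129). To compare strains that all carried osTIR and received DMSO, the controls were also set against each other, a comparison chosen after the values were seen. In the RAP1-AID control 6 members were lower than in the STH1-AID control, HSP78, HSP82, SSA1, HSP104, SSA2 and HSC82, and none higher, against 17.1% lower and 18.7% higher. In the double-strain control 5 were lower (HSP78, HSP82, HSP104, SSA1 and HSC82) and none higher, against 15.4% and 15.1%. The log2 differences of HSP78 were -2.35 and -1.86 (standard errors 0.29 and 0.28). MET17 separated the same strains, as given above, and its part in these differences was not tested.

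Paralogs were compared within each library, where scaling between libraries cancels out. For HSP82 to HSC82 the log2 ratio was -1.02 ± 0.31 in WT. It was -0.94 ± 0.41 in STH1-AID cells with DMSO and -0.22 ± 0.17 with IAA, and these did not overlap. It was -1.75 ± 0.33 in the RAP1-AID control and -1.13 ± 0.32 after Rap1 depletion, also without overlap. In the double strain it was -1.72 ± 0.44 with DMSO and -1.11 ± 0.55 with IAA, which overlapped. For SSA1 to SSA2 the ratio was higher with IAA than with DMSO in all 3 strains without overlap, by 0.65 with Sth1, 0.76 with Rap1 and 0.98 with both depleted. For SSA3 to SSA4 it went the other way, by -0.47, -0.41 and -0.33, and only the last groups overlapped. The SSA3 to SSA4 ratio was also higher in each of the 3 controls than in WT without overlap, by 0.31, 0.36 and 0.36. In all, 18 such comparisons were made with a two-sided exact permutation test, in which 3 libraries against 3 cannot give a p below 0.1. Comparisons without overlap gave an exact p = 0.1, or 0.15 after adjustment over the 18, so none passed.

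**Figure D4:**
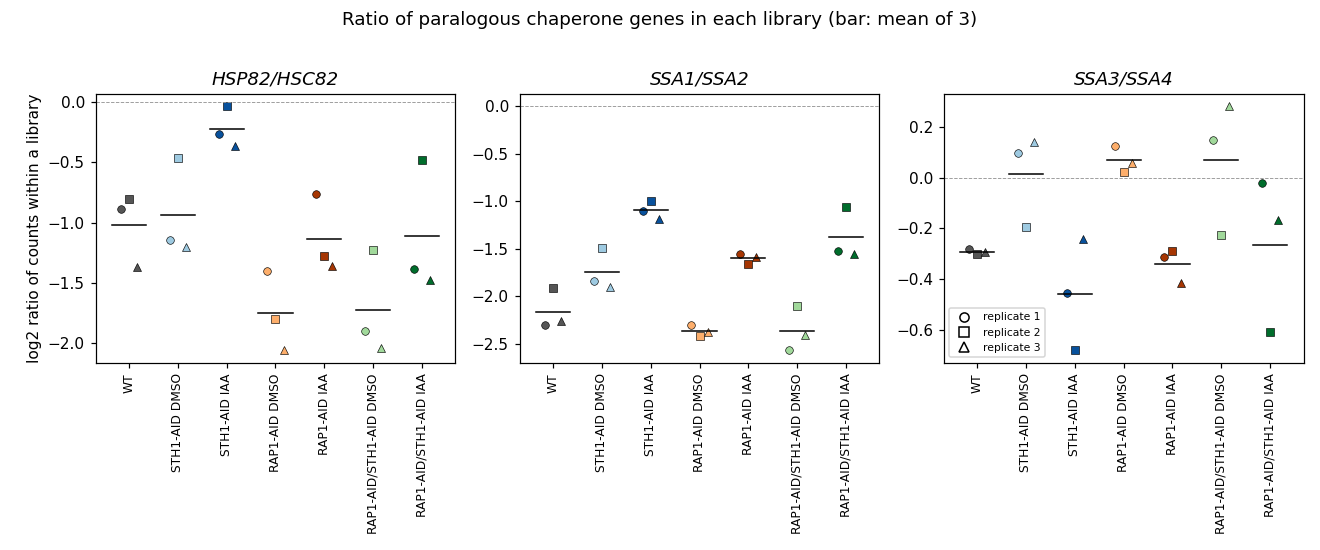
Log2 ratio of counts of paralogous members within each library, by condition, with symbols for the replicate number and bars for the mean of 3. HSP82/HSC82 and SSA1/SSA2 are higher with IAA than with DMSO on average in each strain, and SSA3/SSA4 is lower (0.62 and 0.76 higher, and 0.41 lower, in RAP1-AID cells).

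The paralog values depend on how reads were divided. SSA1 and SSA2 are 96.4% identical over their open reading frames, and 57.6% of the 51-base windows of SSA1 occur unchanged in SSA2. Reads were paired and had been trimmed to 51 bases each, and RSEM apportions a pair that fits both genes. A pair fits both genes only where both of its reads do. The share of single windows can therefore overstate the share of pairs that were divided. HSP82 and HSC82 are 91.7% identical, and 6.15% of HSP82's windows are shared. The windows of the other 6 members were found nowhere else in the genome, SSA3 and SSA4 included (76.6% identical). With the counts of each pair summed, SSA1+SSA2 rose on Sth1 depletion (log2 0.73, standard error 0.24, adjusted p = 0.0108) and was lower in the RAP1-AID control than in WT (-1.02, adjusted p = 0.00236), but it was not called in Rap1 depletion (0.39, adjusted p = 0.254) or co-depletion (0.51, adjusted p = 0.0684). SSA2 made up the larger part of that sum. HSP82+HSC82 rose on Sth1 depletion (0.80) and co-depletion (0.50, adjusted p = 0.0143). How the division of shared reads bears on the separate calls of SSA1 and SSA2 was not tested.

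By likeness of pattern, the 3 genes with the highest Pearson correlation of mean log2 CPM over the 7 conditions were taken for 4 members, as a description over points that share libraries. For HSP82 they were PRB1 (r = 0.985), HSC82 (0.984) and the mitochondrial chaperonin gene HSP60 (0.983), among 5741 genes. For HSP78 they were BTN2 (0.984), PCA1 (0.982) and NNR2 (0.982), and for HSP104 ATG20 (0.971), RVS167 (0.965) and SKP2 (0.948). For SSA4 they were YDL144C (0.975), YIP3 (0.975) and SPT2 (0.971). SIS1 had 5 other members among its nearest 100 genes, HSP82 and HSC82 had 4 each, and SSA3 and SSA4 had none.

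The other chaperone genes, with the transcription factors HSF1, MSN2 and MSN4, were divided by role into 8 lists of 61 genes, of which 24 were higher and 19 lower on Sth1 depletion (median log2 0.27). The TRiC/CCT chaperonin, which folds actin and tubulin, had 7 of 8 subunit genes higher and none lower, with a median of 0.70 beside the -0.06 of all genes. Of 8 chaperones of the endoplasmic reticulum 5 were higher. KAR2, the Hsp70 of that compartment, went from 935 ± 106 to 3557 ± 227 CPM (log2 1.93, standard error 0.29, adjusted p = 7.01e-06). PDI1, a disulfide isomerase, rose by log2 1.41 and SIL1, an exchange factor of Kar2, by 1.33. The mitochondrial Hsp70 and Hsp60 systems had 5 of 9 genes higher and 3 lower.

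Other partners of the members gave these counts on Sth1 depletion. Of 12 Hsp90 cochaperones 7 were lower and 1 higher, and CDC37, which loads protein kinases onto Hsp90, fell from 115 to 46.3 CPM on average (log2 -1.32, standard error 0.09). Of 10 other cytosolic J-proteins 7 were lower and 1 higher, among them JJJ1 (-1.67), a J-protein of ribosome assembly, and JJJ3 (-1.19). Of 7 other Hsp70, Hsp110 and exchange factor genes 2 were higher and 1 lower. Of the 4 small heat shock protein and sorting factor genes 1 was higher. The background shares of 35.9% higher and 40.9% lower apply to all of these.

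**Figure D5:**
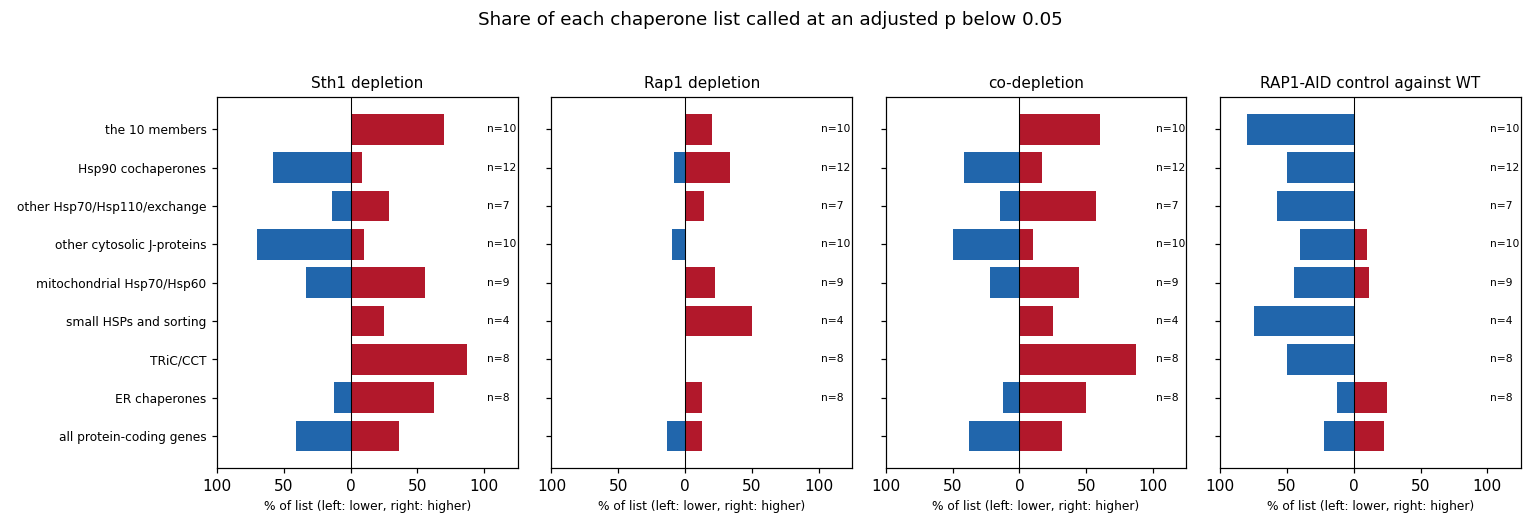
Share of each chaperone list called at an adjusted p below 0.05, lower to the left and higher to the right, in 4 comparisons, with the number of genes tested and the share of all 5742 protein-coding genes at the bottom. On Sth1 depletion the 10 members and TRiC/CCT are among the lists with higher calls alone, and in the RAP1-AID control the members, the cochaperones and the small heat shock proteins are among those with lower calls alone.

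On Rap1 depletion 10 of the 61 were higher and 3 lower (median log2 0.13), beside 12.8% and 13.3% of all genes. HSP42, a small heat shock protein that gathers aggregates, went from 31.5 ± 16.6 to 173 ± 54.9 CPM (log2 2.46, standard error 0.69, adjusted p = 0.0129). HSP26, the other small heat shock protein, rose by 1.45 and ZIM17, from the list of mitochondrial Hsp70 and Hsp60 systems, by 0.92. The cochaperone phosphatase gene PPT1 fell by 0.40 and JJJ1 by 0.23 on the log2 scale. In co-depletion 24 were higher and 15 lower, beside 32.2% and 37.5% of all genes, with ZIM17 (1.46), HSP26 (1.12) and KAR2 (1.11) the largest increases and JJJ1 (-1.10), JAC1 (-0.96) and HLJ1 (-0.95) the largest decreases. TRiC/CCT again had 7 of 8 higher.

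In the RAP1-AID control 29 of the 61 were lower than in WT and 4 higher, beside 22.1% and 22.7% of all genes. The largest decreases, named here after their values were seen, were in the sorting factor genes BTN2 (log2 -3.03, standard error 0.63) and CUR1 (-2.06, standard error 0.46) and in HSP42 (-2.38, standard error 0.69). BTN2 was at 257 ± 86.9 CPM in WT and 31.5 ± 11.2 CPM in this control. In the double-strain control 23 were lower and 1 higher, beside 17.0% and 16.3% of all genes. In the STH1-AID control 10 were lower and 2 higher, beside 19.4% and 18.5%.

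The genes of the factors known to act on the members moved as follows. HSF1 rose from 401 ± 7.13 to 979 ± 46.6 CPM on Sth1 depletion (log2 1.29, standard error 0.08, adjusted p = 2.51e-11), and fell by 0.43 on Rap1 depletion and by 0.50 on co-depletion. In the RAP1-AID control it was at 299 ± 14.4 CPM against 448 ± 28.2 in WT (-0.59, standard error 0.08). MSN2 rose on Sth1 depletion (0.69) and co-depletion (0.82), and MSN4 was not called in any of the 3 depletions. Both were lower than WT in the RAP1-AID control (-0.60 and -0.62) and in the STH1-AID control (-0.44 and -1.19). Protein activity was not measured here.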

How the data were processed

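RNA bound to Rpb3-3xFLAG was sequenced by the authors in a strand-specific way from 21 libraries, 3 biological replicates of each of 7 conditions, grouped by the labels. Paired reads were trimmed to 51 bases each with cutadapt 1.9.1, aligned with STAR 2.5.2a and assigned to R64 genes with RSEM 1.3.0. RSEM's expected counts were deposited as such, with no scaling between libraries, and served for all tests. TPM, which the authors deposited beside them, adjusts for gene length and library total and served only to rank levels. Depth was 18289832 to 23182315 counts. Errors are the SD over 3 replicates or the standard error of the fit to all 21 libraries. No spike-in was used for these libraries, so all levels are relative within a library.

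Rounded counts were fitted with edgeR 4.0.16 in R 4.3.3: TMM, edgeR's filter on low counts (6164 features and 5742 protein-coding genes kept), 1 coefficient per condition, 14 residual degrees of freedom, the quasi-likelihood test, and Benjamini-Hochberg adjustment over the protein-coding genes kept. A call is an adjusted p below 0.05. The paper's fits used DESeq2 1.12.3. Alternatives were DESeq2 1.42.0 size factors and Wald test, total library size, replicate block, other filters, only the libraries compared, an adjusted p of at most 0.01, all features, summed paralogs and each library left out. The controls against each other, and the double strain without replicate 2, were added after the values were seen.

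The members and lists were chosen with earlier results of these data known. The text names all members, the 3 largest increases and decreases among called list genes in each depletion, the 3 genes of most similar pattern for HSP104, HSP82, SSA4 and HSP78, and HSF1, MSN2, MSN4 and the tagged or deleted genes. Replicate numbers come from the labels. In RAP1-AID cells the deviations of same-numbered IAA and DMSO libraries correlated at 0.20, 0.47 and 0.24 across genes, so results with the replicate block are also given. The block was shared by all conditions, WT included, and does not pair the libraries of a single strain. The steps were tested on simulated counts.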

Additional observations from a re-analysis of the deposited data

Results flagged for a closer look

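The IAA effect of 2 members differed between strains in edgeR's test of the difference itself (3 libraries per condition, too few for a test of single outlying libraries). HSP104 differed between Sth1 and Rap1 depletion by -1.30 on the log2 scale (standard error 0.53, adjusted p = 0.0348). It lay between -1.61 and -1.04 on leaving out 1 of the 12 libraries at a time, with adjusted p-values from 0.0167 to 0.103, and the call was lost in 7 of the 12.

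SSA4 differed in 3 comparisons of effects. Its effect was 0.41 higher with Sth1 than with Rap1 depletion (standard error 0.13, adjusted p = 0.00744, between 0.31 and 0.47 without any 1 library). It was -0.53 in co-depletion against Sth1 depletion (standard error 0.13, adjusted p = 0.00416, between -0.58 and -0.45), and -0.88 against the sum of the single effects (standard error 0.16, adjusted p = 3.90e-04, between -0.96 and -0.79). All 3 kept an adjusted p below 0.05 without any 1 library. The first was lost under total library size (0.04, adjusted p = 0.822, with the median of all genes at -0.44 in place of -0.06), and the other 2 were not (-0.48 and -0.95).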

How the results depend on the processing

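The number of members called was within 1.5 times that reported for DESeq2 size factors, other filters on low counts and adjustment over all features. Shares of all genes were counted for the reported fit alone, so the counts in this section have none beside them. At an adjusted p of at most 0.01 the higher calls were 1 in Rap1 depletion and 2 in co-depletion, the lower calls against WT were 4 in the double-strain control and 0 in the STH1-AID control, those of the double-strain control against the STH1-AID control were 3, and the Sth1 minus Rap1 difference had 0 lower calls, as it had with DESeq2's Wald test. With only the libraries compared, higher calls were 5 in Rap1 depletion, 3 in co-depletion, 1 each in the RAP1-AID and STH1-AID controls against WT and 2 in the Sth1 minus Rap1 difference, and 3 members were lower in the STH1-AID control. Under total library size, which moved the median of all genes from -0.06 to -0.31 in Sth1 depletion, from -0.05 to -0.26 in co-depletion, from 0.01 to 0.13 in Rap1 depletion and by up to 0.19 in the controls, higher calls were 6 in Rap1 depletion, 2 in co-depletion, 1 each in the RAP1-AID and STH1-AID controls and 0 in the Sth1 minus Rap1 difference, and lower calls were 4 in the double-strain control and 0 in the STH1-AID control. The causes were not tested. With the replicate block 5 members were higher in Rap1 depletion and 3 in the Sth1 minus Rap1 difference, and no other count moved by over 1.5 times. Same-numbered libraries correlated at 0.27, 0.35 and 0.09 in STH1-AID cells and at 0.06, 0.47 and 0.36 in RAP1-AID/STH1-AID cells. These values overlapped with those of RAP1-AID cells, so they do not set the strains apart in pairing.

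With 1 library left out, higher calls ranged from 5 to 7 in Sth1 depletion, 1 to 3 in Rap1 depletion, 1 to 7 in co-depletion and 1 to 2 in the Sth1 minus Rap1 difference. Lower calls ranged from 0 to 2 in co-depletion, 4 to 9 in the double-strain control against WT, 3 to 7 in that control against the STH1-AID control, 0 to 0 in the STH1-AID control against WT, 0 to 1 in the Sth1 minus Rap1 difference and 1 to 6 in the co-depletion against the sum. The double-strain control against the STH1-AID control had 3 lower without its replicate 1 or 3 or without replicate 2 of the STH1-AID control. The higher calls of the Sth1 minus Rap1 difference were 2 without RAP1-AID IAA replicate 1 or STH1-AID IAA replicate 2. Without both replicate 2 libraries of the double strain the co-depletion had 4 members below the sum. Of 2050 alternative values of single members, 59 changed sign, in 30 pairs of a member and a comparison, and none of these was called before or after the change. Under total library size the values with changed sign were 0.055 for SSA3 in the RAP1-AID against the STH1-AID control, 0.054 for SSA4 in the RAP1-AID control against WT, 0.061 for SSA3 in Rap1 depletion, 0.031 for HSC82 and 0.060 for SSA4 in the STH1-AID control against WT, -0.26 for HSP78 in Sth1 depletion, and in the Sth1 minus Rap1 difference -0.11 for HSC82, -0.046 for HSP82, -0.17 for SSA1, -0.043 for SSA2 and -0.0064 for SSA3. With paralogs summed they were 0.055 for SSA4 in the RAP1-AID control and -0.100 for SSA3 in the double-strain control against WT, -0.048 for HSP82, -0.047 for SSA1 and 0.095 for SSA4 in the STH1-AID control against WT, 0.15 and 0.060 for SSA3 in Rap1 depletion and co-depletion, -0.22 for SSA1 in co-depletion minus Sth1, and -0.0029 for HSP78 in Sth1 depletion, where it was -0.012 with no filter. SIS1 in co-depletion minus Sth1 was at -0.075 without both replicate 2 libraries.

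Leaving out 1 library changed a sign in these ranges of log2 values. In the RAP1-AID against the STH1-AID control they were -0.11 to 0.091 for SSA3 and -0.14 to 0.011 for SSA4, and in the double-strain against the STH1-AID control -0.31 to 0.17 for YDJ1. In Rap1 depletion they were -0.022 to 0.30 for HSP78 and -0.15 to 0.050 for SSA3. In the STH1-AID control against WT they were -0.17 to 0.26 for HSP78 and -0.23 to 0.14 for HSP82, and in Sth1 depletion -0.16 to 0.25 for HSP78. In Sth1 minus Rap1 they were -0.30 to 0.11 for HSP78 and -0.33 to 0.052 for SIS1. In co-depletion they were -0.97 to 0.11 for HSP104, -0.72 to 0.049 for HSP78, -0.015 to 0.58 for SSA2 and -0.21 to 0.028 for SSA3. In co-depletion minus Sth1 they were -0.68 to 0.40 for HSP104, -0.72 to 0.057 for HSP78, -0.77 to 0.21 for HSP82, -0.60 to 0.60 for SIS1, -0.44 to 0.59 for SSA1 and -0.57 to 0.028 for SSA2. With paralogs summed, no count of members could be given.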
